A study of Homo sapiens with 12 samples.

Results

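SAMD9, SAMD9L, DDX60, DDX60L, HELZ2, RSAD2 (which encodes viperin) and CMPK2 are IFN-stimulated antiviral genes. They were taken by symbol from the count tables of CAL27 and HSC3 cells, where all 7 were found among 39368 symbols. They were selected on their counts, vehicle levels and DOX responses in these same libraries, so their levels and responses are given as a description with no p-value. RNA-seq had been performed on 12 libraries of HPV-negative HNSCC cells, 3 in each of 4 groups. Each line, CAL27/tet-MUC1shRNA or HSC3/tet-MUC1shRNA, had received either 0.1% DMSO (vehicle) or 500 ng/mL doxycycline (DOX) for 7 days. All 12 libraries came from cells that carry a DOX-inducible shRNA against MUC1 and had been selected with puromycin. The labels do not say which of the MUC1 shRNAs was used or whether the cells were clones. A DOX-treated line with a control shRNA was not analysed here, so effects of DOX and of the shRNA cannot be told apart.

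Type I IFNs bind a surface receptor whose JAK kinases activate transcription factors that bind the interferon-stimulated response element (ISRE) of their target genes. The proteins of the 7 genes act late in that pathway, on viral RNA, on translation or on nucleotides. Epithelial tumor cells can keep part of this program active with no virus present.

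SAMD9 and SAMD9L are cytoplasmic proteins that restrict poxviruses and inhibit protein synthesis. DDX60 and DDX60L are Ski2-like DExD/H-box helicases, the former linked to RIG-I signaling. HELZ2 is a UPF1-like helicase first described as a coactivator of PPAR nuclear receptors. Viperin is a radical SAM enzyme that turns CTP into a chain-terminating ribonucleotide. CMPK2 is a mitochondrial nucleotide kinase whose gene lies beside RSAD2 and whose product helps to supply that CTP.

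The genes fall into 3 adjacent pairs and 1 single gene (GRCh38, GENCODE v44). SAMD9 (chr7:93099513-93118023) and SAMD9L (chr7:93130056-93148385) lie 12032 bases apart on the minus strand. DDX60 (chr4:168216291-168318883) and DDX60L (chr4:168356735-168537786) lie 37851 bases apart, also on the minus strand. CMPK2 (chr2:6840570-6866635, minus strand) and RSAD2 (chr2:6865557-6898239, plus strand) are transcribed away from each other and overlap by 1079 bases at their 5′ ends. HELZ2 (chr20:63558086-63574239) is on the minus strand. The overlap takes in 6.20% of the exonic bases of RSAD2 and 7.99% of those of CMPK2, on opposite strands. The library kit kept strand, but how the counting used it is not given in the sources used here, so reads in that stretch could be split between these 2 genes. The coding sequences of SAMD9 and SAMD9L were 72.6% identical and those of DDX60 and DDX60L 78.5%. No stretch of 50 exonic bases was shared by SAMD9 and SAMD9L, and 42 of 17658 such stretches of DDX60 (0.238%) also occurred in DDX60L.

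To show where the ISRE core stands, the stretch of 70 bases around the matches is printed for the 4 genes that hold it, and the 70 bases next to the start for the 3 that do not. The sequences are RefSeq promoters (GRCh38.p14), read 5′ to 3′ on the strand of the gene before the start of its canonical transcript. Capitals mark matches, searched on both strands, to the ISRE core, which was taken as GAAA, any 2 bases and GAAA, and to the closer spacing GAAANGAAA. In SAMD9, DDX60 and DDX60L a match to one shares its bases with a match to the other. The capitals of RSAD2 are a match on the opposite strand. The stretches are chr7:93118076-93118145 (minus strand) for SAMD9 and chr7:93148386-93148455 (minus) for SAMD9L. They are chr4:168318796-168318865 (minus) for DDX60 and chr4:168480528-168480597 (minus) for DDX60L. They are chr20:63574240-63574309 (minus) for HELZ2, chr2:6877607-6877676 (plus) for RSAD2 and chr2:6865908-6865977 (minus) for CMPK2.
SAMD9: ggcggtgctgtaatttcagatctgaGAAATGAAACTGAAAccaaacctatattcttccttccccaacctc
SAMD9L: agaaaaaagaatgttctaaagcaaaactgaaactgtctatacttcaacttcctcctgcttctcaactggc
DDX60: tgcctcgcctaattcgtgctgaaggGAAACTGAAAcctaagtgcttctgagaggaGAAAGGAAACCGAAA
DDX60L: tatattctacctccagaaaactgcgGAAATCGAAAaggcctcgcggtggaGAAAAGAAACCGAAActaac
HELZ2: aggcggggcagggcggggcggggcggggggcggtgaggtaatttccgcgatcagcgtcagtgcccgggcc
RSAD2: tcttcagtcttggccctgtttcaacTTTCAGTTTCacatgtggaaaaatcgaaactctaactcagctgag
CMPK2: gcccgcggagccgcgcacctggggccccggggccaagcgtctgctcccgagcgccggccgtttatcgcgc

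In the 250 bases before the canonical start, the ISRE core occurred 1 time in SAMD9 and in RSAD2 and 2 times in DDX60 and in DDX60L. The same motif was in 3.02% of 35116 RefSeq promoters of that length. GAAANGAAA was in 2.69% of them, and occurred 1 time each in SAMD9, DDX60 and DDX60L. DDX60 and DDX60L carried the same layout. The far match began 88 bases before the start in DDX60 and 80 bases before it in DDX60L, and the near match began 53 and 50 bases before it. SAMD9L, HELZ2 and CMPK2 held neither motif in that window. A second annotated start of RSAD2, 11892 bases upstream of the canonical one and inside the overlap with CMPK2, had 4 matches to GAAANGAAA in its window, and a CMPK2 start 88 bases from the canonical one had 1. The STAT dimer motif TTCNNNGAA, found in 6.57% of promoters, occurred 1 time in DDX60 and in the canonical window of no other of the 7. These matches are a description of letters, and binding was not measured.

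**Figure D1:**
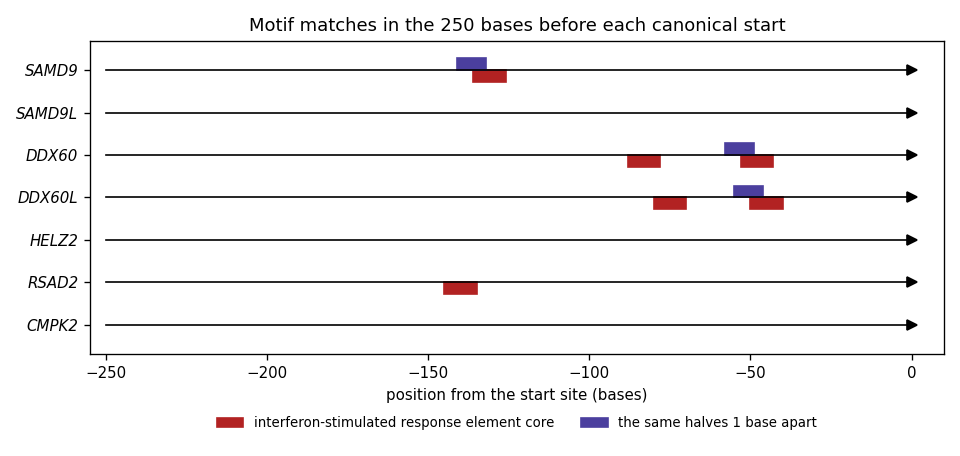
Motif matches in the 250 bases before the canonical start of each gene, with position from the start in bases on the x axis (start at 0). Red boxes are the ISRE core and blue boxes are the same elements 1 base apart. Matches stand in SAMD9, DDX60, DDX60L and RSAD2, and the pairs of red boxes in DDX60 and DDX60L have a like layout.

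Library totals were 89730914 to 169065103 counts. An estimate from genes with few reads gave 2.42 to 3.38 counts per original molecule in CAL27 cells, 4.19 to 7.45 in HSC3 cells with vehicle and 8.98 to 17.3 in HSC3 cells with DOX, so low counts in HSC3 cells stand for few molecules. MUC1, the target of the shRNA, went from 55.3 ± 2.79 to 2.98 ± 0.249 CPM (SD, n = 3; CPM are counts scaled to library size) on DOX in CAL27 cells. In HSC3 cells, where it was scarce, it went from 1.76 ± 0.186 to 0.236 ± 0.0928 CPM. Its log2 fold change was -4.21 ± 0.067 (SE) in CAL27 cells (adjusted p = 1.6e-19, edgeR quasi-likelihood test) and -2.88 ± 0.38 for HSC3 (adjusted p = 0.0002). The 7 squamous epithelial markers checked were all above 1 CPM, and in CAL27 libraries their sum was 6151 to 6413 CPM before and 2889 to 3090 CPM after DOX. In HSC3 libraries these sums were 5725 to 6448 and 2577 to 3027 CPM. The lower sums came from the keratins and TP63, while EPCAM was higher in every DOX library than in any vehicle library of its line and CDH1 overlapped between the groups. Of 14 leukocyte, endothelial and fibroblast markers, 9 were under 1 CPM in every CAL27 vehicle library and 12 in every HSC3 vehicle library, PTPRC among them. The pan-leukocyte marker PTPRC did not exceed 0.122 CPM in any library. The others in CAL27 vehicle libraries were CDH5 (mean 14.6 CPM), COL1A1 (8.40), CD14 (4.70), COL1A2 (2.24) and LUM (2.09). Those in HSC3 vehicle libraries were COL1A1 (4.59) and CD14 (1.03). The part of the lower squamous markers in the values of the 7 genes was not tested. In bulk RNA, fewer expressing cells and less RNA per cell cannot be told apart.

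Levels below are CPM, with TMM factors over the 12 libraries, and changes are log2 fold changes with their standard error (SE). A gene was called in a comparison where its adjusted p was under 0.05 and its change exceeded 2-fold. In CAL27 cells 6 of the 7 genes were called lower with DOX, beside 5.11% of the 19239 genes tested. DDX60L was the exception. In HSC3 cells 3 of the 7 were called lower (SAMD9L, DDX60 and CMPK2), beside 4.40% of 18021. None of the 7 was called higher with DOX in either line, beside 1.31% of genes for CAL27 and 1.58% for HSC3. The genes were chosen with these contrasts known, so nothing is read from these counts.

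**Figure D2:**
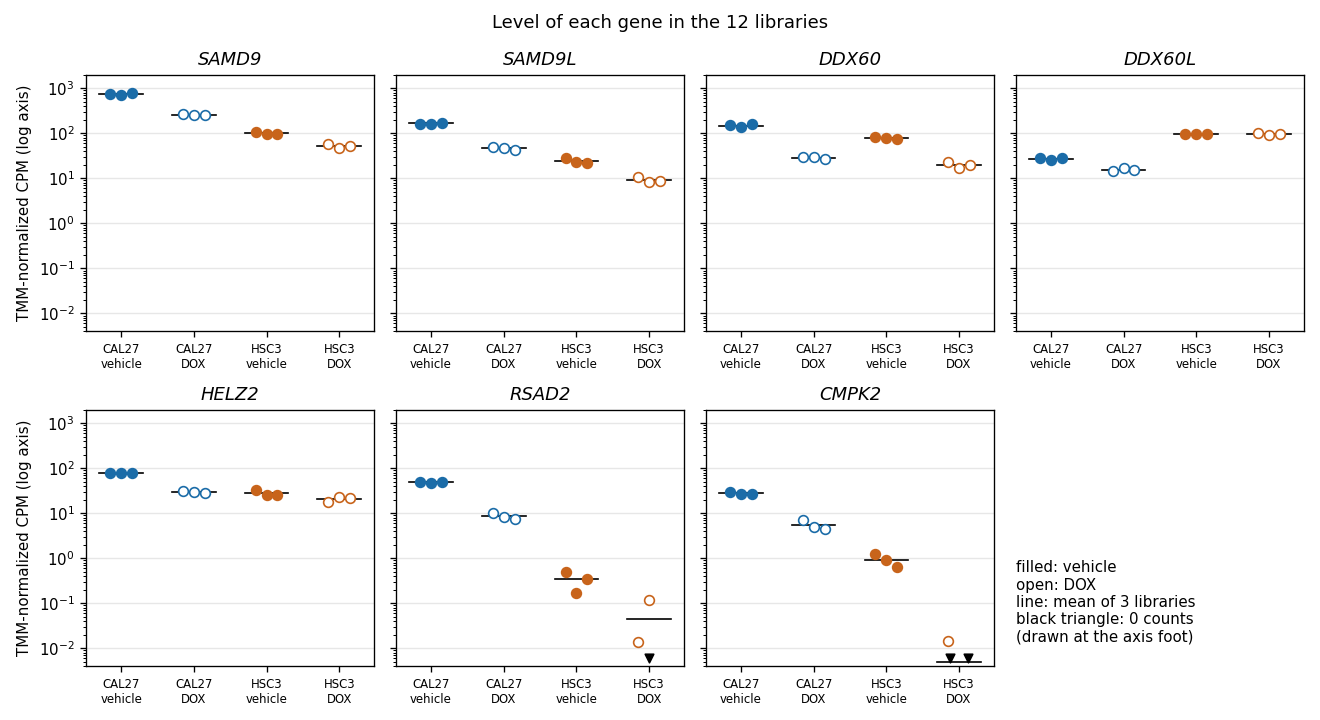
CPM of each gene (log axis) in the 12 libraries by group. Filled points are vehicle libraries, open points DOX libraries, lines group means of 3 libraries, and black triangles libraries with 0 counts. The CAL27 DOX points lie below the CAL27 vehicle points in all 7 panels, while in HSC3 cells DDX60L is level and RSAD2 and CMPK2 are near the foot of the axis.

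SAMD9 was the most abundant of the 7 per length of exon in CAL27 cells. It stood at 768, 710 and 769 CPM in the vehicle libraries and at 275, 254 and 253 CPM in the DOX libraries. The groups were far apart, and the level with DOX was 34.8% of that with vehicle (log2 fold change -1.53 ± 0.043). In HSC3 cells SAMD9 stood at 107, 97.9 and 99.1 CPM with vehicle and at 58.0, 48.0 and 51.3 CPM with DOX. These groups did not overlap either, but the log2 fold change of -0.96 ± 0.081 was just short of the call. It passed without HSC3 DOX replicate 1, at -1.03.

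SAMD9L, its paralog, was present at 165, 161 and 174 CPM in CAL27 cells with vehicle and at 50.6, 46.8 and 43.3 CPM with DOX. Its log2 fold change was -1.83 ± 0.050. HSC3 cells had 28.3, 23.4 and 21.9 CPM with vehicle and 10.9, 8.46 and 8.81 CPM with DOX, a log2 fold change of -1.39 ± 0.13. In both lines every DOX library was below every vehicle library.

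The ratio of SAMD9 to SAMD9L counts was similar in the 2 lines, although with vehicle the levels of both genes differed between the lines by more than 6-fold. It was 4.66, 4.42 and 4.42 in CAL27 cells with vehicle and 3.79, 4.18 and 4.53 in HSC3 cells with vehicle. The CAL27 DOX libraries had ratios of 5.43, 5.43 and 5.85, and the HSC3 DOX libraries 5.34, 5.67 and 5.82. In each line all 3 DOX libraries had a higher ratio than all 3 vehicle libraries, so SAMD9L was reduced by more than SAMD9 relative to its own vehicle level.

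DDX60 had the largest change among the 5 genes measured by more than 100 counts in every library. In CAL27 cells it stood at 151, 137 and 160 CPM with vehicle and at 29.5, 29.3 and 26.8 CPM with DOX (log2 fold change -2.39 ± 0.054). In HSC3 cells it stood at 84.6, 80.1 and 75.4 CPM with vehicle and at 23.5, 16.7 and 19.4 CPM with DOX (log2 fold change -2.02 ± 0.12). It was called lower in each line under every alternative processing tried.

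DDX60L behaved differently from DDX60 in both lines. In CAL27 cells it stood at 28.4, 25.01 and 28.5 CPM with vehicle and at 14.9, 16.7 and 15.1 CPM with DOX. The groups did not overlap, with a log2 fold change of -0.81 ± 0.064, short of the call. In HSC3 cells it stood at 96.4, 96.1 and 96.3 CPM with vehicle and at 101, 92.7 and 97.1 CPM with DOX. Here the DOX libraries lay on both sides of the vehicle libraries, and the log2 fold change was 0.01 ± 0.062.

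The ratio of DDX60 to DDX60L counts therefore spanned a wide range. It stood at 5.31, 5.49 and 5.61 in CAL27 vehicle libraries and 1.98, 1.76 and 1.77 in CAL27 DOX libraries. It was 0.878, 0.833 and 0.783 in HSC3 vehicle libraries and 0.232, 0.180 and 0.200 in HSC3 DOX libraries. None of the 4 groups overlapped another in this ratio, and DDX60L was the more counted gene of the pair only in HSC3 cells. Divided by exonic length, the mean ratios were 3.83, 1.29, 0.583 and 0.143 in the same order of groups. The promoters of both genes, printed above, hold the same number of matches to the ISRE core and to GAAANGAAA.

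**Figure D3:**
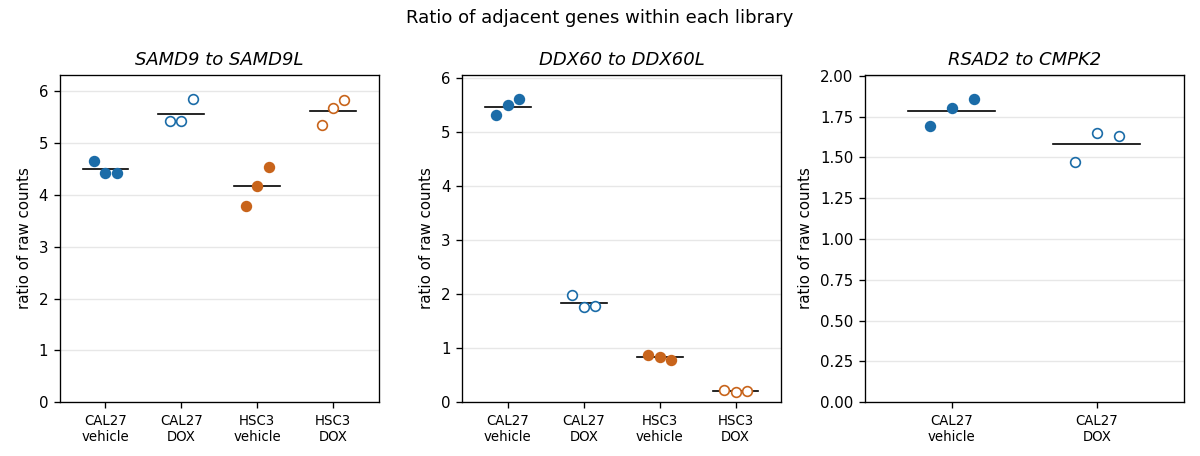
Ratio of raw counts of neighboring genes in each library, with filled points for vehicle, open points for DOX and lines for the mean of 3 libraries. The SAMD9 to SAMD9L ratio lies between 3.79 and 5.85 in all 12 libraries, whereas DDX60 to DDX60L runs from 0.180 to 5.61. RSAD2 to CMPK2 is shown for CAL27 cells alone, since the HSC3 counts are too few.

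HELZ2, the UPF1-like helicase, was at 79.0, 76.3 and 78.7 CPM in CAL27 cells with vehicle and at 31.1, 29.2 and 27.5 CPM with DOX. Its log2 fold change there was -1.42 ± 0.047. In HSC3 cells it was at 33.6, 25.6 and 24.8 CPM with vehicle and at 17.5, 23.0 and 21.9 CPM with DOX. The lowest vehicle library and the highest DOX library differed by less than the spread within either group, and the log2 fold change was -0.44 ± 0.14. HELZ2 was called in HSC3 cells under none of the 14 settings.

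RSAD2 was well expressed only in CAL27 cells. There the 3 vehicle libraries held 6921, 5165 and 6039 counts (49.2 ± 1.35 CPM, SD, n = 3), and the 3 DOX libraries held 1071, 835 and 948 (8.57 ± 1.49 CPM). The log2 fold change was -2.53 ± 0.094, and the level with DOX was 17.4% of that with vehicle. HSC3 cells gave 58, 14 and 42 counts without DOX and 2, 16 and 0 after it. At the estimated counts per molecule, these correspond to about 8.4, 3.3 and 5.6 molecules in the vehicle libraries and to 0.1, 1.8 and 0 in the DOX libraries. The raw count of HSC3 DOX replicate 2 was above that of HSC3 vehicle replicate 2, and the log2 fold change of -2.93 ± 1.2 was not called. Without HSC3 DOX replicate 2 it was -5.40 and called, so that library decides the value.

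CMPK2 in CAL27 cells had 4085, 2862 and 3252 counts in the vehicle libraries (27.6 ± 1.74 CPM) and 727, 507 and 581 in the DOX libraries (5.46 ± 1.31 CPM). Its log2 fold change of -2.35 ± 0.15 was close to that of RSAD2. The ratio of RSAD2 to CMPK2 counts was 1.69, 1.81 and 1.86 in vehicle libraries and 1.47, 1.65 and 1.63 in DOX libraries. In HSC3 cells the vehicle libraries held 146, 74 and 76 CMPK2 counts and the DOX libraries 0, 2 and 0. With a floor of 3 molecules for each DOX library at the estimated counts per molecule, its level was at least 3.38-fold lower with DOX. This bound covers counting error in the DOX libraries only and takes the vehicle mean as exact. Divided by counts per molecule, the vehicle libraries held about 21, 17.6 and 10.2 molecules and the DOX libraries 0, 0.2 and 0. Expression in HSC3 cells with DOX was thus not detectable at this depth beyond 2 counts in 1 library.

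**Figure D4:**
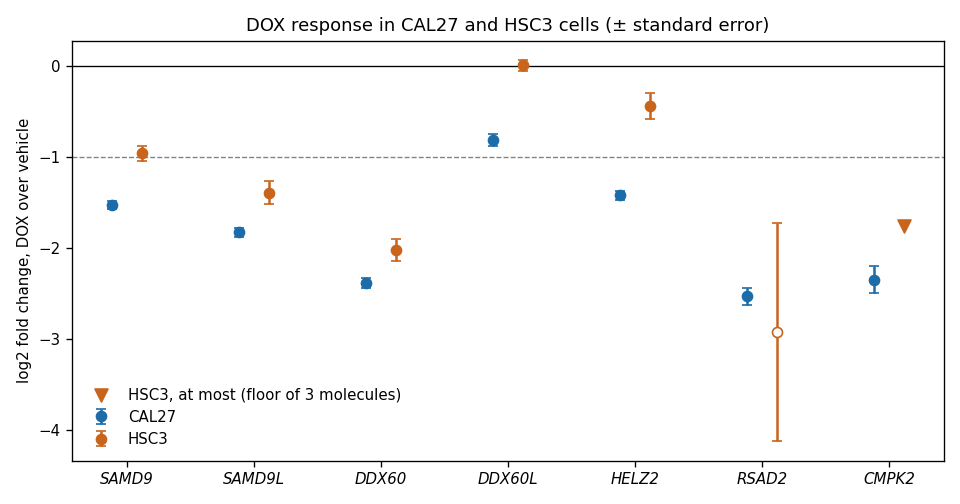
Log2 fold change (DOX over vehicle) of each gene in CAL27 cells (blue) and HSC3 cells (orange), with bars of ± 1 SE and a dashed line at -1. The open circle is RSAD2 in HSC3 cells, which rests on 0 to 58 counts a library, and the triangle is the upper limit for CMPK2 in HSC3 cells from a floor of 3 molecules a library. CAL27 values run from -2.53 to -0.81.

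The responses were set against each other in 1 fit of the 12 libraries, as the HSC3 log2 fold change minus the CAL27 log2 fold change. At an adjusted p under 0.05 with no limit on size, 4 of the 7 genes were called with a higher value in HSC3 cells (8.25% of 20694 genes tested) and 1 with a lower value (12.3%). The higher ones were SAMD9 at 0.57 ± 0.095, SAMD9L at 0.44 ± 0.14, DDX60L at 0.82 ± 0.091 and HELZ2 at 0.98 ± 0.16. The SAMD9L difference was called in 11 of 18 settings, and leaving out CAL27 DOX library b or c, any CAL27 vehicle replicate, or HSC3 vehicle replicate 2 or 3 ended the call (0.38 to 0.48). For these genes DOX was followed by a smaller reduction in HSC3 cells, or by none in the case of DDX60L. DDX60 differed by 0.38 ± 0.14 and was not called. RSAD2 was not called either, and its estimate of -0.44 ± 0.67 leaves a wide range. The lower one was CMPK2, whose fitted size depends on the near absence of counts in HSC3 cells with DOX. The CMPK2 difference was called in 18 of 18 settings, from -7.44 to -4.35. A floor of 3 molecules in every HSC3 DOX library leaves room for a smaller reduction than in CAL27 cells. That bound alone therefore does not settle the direction.

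With vehicle, 5 of the 7 genes were called lower in HSC3 cells than in CAL27 cells, beside 18.7% of 20694 genes tested, and 1 higher, beside 13.2%. The median over all genes was -0.12. The gap was widest for the neighbors on chromosome 2. RSAD2 was 144-fold lower in HSC3 cells (log2 fold change -7.11 ± 0.30, resting on 14 to 58 HSC3 counts) and CMPK2 29.6-fold lower (-4.88 ± 0.23). SAMD9 was lower by 7.39-fold (-2.89 ± 0.072), SAMD9L by 6.79-fold (-2.76 ± 0.11) and HELZ2 by 2.79-fold (-1.48 ± 0.11). DDX60 was lower by 1.86-fold (-0.90 ± 0.098), which was not called. DDX60L went the other way and was 3.53-fold higher in HSC3 cells (1.82 ± 0.066). The lines were also grown in different media (DMEM for CAL27, MEM for HSC3). Their vehicle libraries differed in genes detected (24274 to 24685 for CAL27, 20661 to 21243 for HSC3). The estimated counts per molecule differed as well (2.42 to 3.07 and 4.19 to 7.45). Line, medium and these library differences cannot be told apart in this comparison.

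The summed level of the 7 genes was 1247 ± 55.5 CPM (SD, n = 3) in CAL27 vehicle libraries and 395 ± 20.9 CPM in CAL27 DOX libraries. For HSC3 it was 332 ± 17.8 and 199.5 ± 11.2 CPM. SAMD9 made up 60.1% and 66.0% of the sum for CAL27 and 30.6% and 26.3% for HSC3. DOX-treated CAL27 cells thus still had a higher sum than vehicle-treated HSC3 cells, with SAMD9 at 261 against 101 CPM. This order did not hold for every gene. DDX60 (28.5 against 80.0 CPM) and DDX60L (15.6 against 96.3 CPM) were lower in the DOX-treated CAL27 cells.

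Levels between genes were compared per kilobase of exon. In CAL27 cells with vehicle SAMD9 led at 109 ± 4.91 CPM per kb (SD), followed by SAMD9L at 20.9 ± 0.868. RSAD2 (8.70 ± 0.238) and DDX60 (8.61 ± 0.648) overlapped in their libraries, as did HELZ2 (6.46 ± 0.122) and CMPK2 (6.29 ± 0.396), and DDX60L was lowest at 2.25 ± 0.163. In HSC3 cells with vehicle the order was SAMD9 (14.8 ± 0.741), DDX60L (7.92 ± 0.00966), DDX60 (4.62 ± 0.267), SAMD9L (3.07 ± 0.419), HELZ2 (2.32 ± 0.402), CMPK2 (0.213 ± 0.0720) and RSAD2 (0.0604 ± 0.0294). Only SAMD9L and HELZ2 overlapped among neighbors in that order. DDX60L, last in CAL27 cells, was thus the second of the 7 in HSC3 cells.

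With DOX the order in CAL27 cells was still led by SAMD9 (38.0 ± 1.79 CPM per kb) and SAMD9L (5.87 ± 0.459). HELZ2 (2.42 ± 0.151) came next, and DDX60 (1.64 ± 0.0880), RSAD2 (1.51 ± 0.264), DDX60L (1.28 ± 0.0793) and CMPK2 (1.24 ± 0.297) overlapped each with the next. In HSC3 cells with DOX, DDX60L (7.98 ± 0.359) and SAMD9 (7.65 ± 0.741) overlapped at the top. HELZ2 (1.72 ± 0.239), SAMD9L (1.17 ± 0.162) and DDX60 (1.15 ± 0.199) followed, and RSAD2 and CMPK2 were near 0. These orders depend on the length used, above all for DDX60, whose merged exons are much longer than its longest transcript. Per kilobase of longest transcript, DDX60 was at 22.2 in CAL27 cells with vehicle, close to SAMD9L at 23.3 and above RSAD2 at 10.1, and CMPK2 ranked above HELZ2. In both DOX groups DDX60 then ranked above HELZ2. In HSC3 cells with DOX, DDX60L (14.3) then stood clear of SAMD9 (7.70).

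Factors of the IFN pathway were measured in the same libraries. STAT2, which acts downstream of the type I receptor, changed on the log2 scale by -1.14 ± 0.038 (adjusted p = 8.9e-15) in CAL27 and by -0.29 ± 0.077 (adjusted p = 0.018) in HSC3 cells. IRF7, which amplifies IFN responses, changed by -1.84 ± 0.11 (adjusted p = 3.2e-11) in CAL27 and by -0.94 ± 0.25 (adjusted p = 0.016) in HSC3 cells, in the latter below the 2-fold call. IRF1 fell in CAL27 cells (-0.72 ± 0.072, adjusted p = 3.6e-06) and did not pass in HSC3 cells (0.24 ± 0.15, adjusted p = 0.28). IRF9 was barely counted, with 22 to 30 counts in CAL27 vehicle libraries and 0 to 6 in CAL27 DOX libraries. The paper measured IRF9 mRNA by qRT-PCR and IRF9 protein by immunoblot in CAL27 cells, so these counts may not reflect its level. Why they were so low was not tested.

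Of 22 IFN ligand, receptor and signaling genes tested in CAL27 cells, 6 were called lower and none higher, beside 5.11% and 1.31% of all genes, with a median log2 fold change of -0.40. This list, like those below, was put together with results of these libraries known. The 6 were IRF7, IRF9, STAT2, the IFN-γ receptor chain IFNGR1 (-1.20 ± 0.047, adjusted p = 8.8e-14) and the feedback inhibitors USP18 (-1.29 ± 0.087, adjusted p = 4.7e-10) and SOCS1 (-1.52 ± 0.20, adjusted p = 3.1e-06). In HSC3 cells 2 of 21 were called lower, beside 4.40% of all genes. They were IFNGR1 (-1.44 ± 0.11, adjusted p = 4.5e-06) and the IFN-λ receptor chain IFNLR1 (-1.39 ± 0.13, adjusted p = 1.7e-05). The inhibitor SOCS3 was called higher in HSC3 cells (1.21 ± 0.085, adjusted p = 2.4e-06), beside 1.58% of all genes. Without HSC3 DOX replicate 1, 4 genes of this list were called lower and 1 higher.

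Among 68 other type I IFN-stimulated genes, 41 were called lower and none higher in CAL27 cells, beside 5.11% and 1.31% of all genes, with a median log2 fold change of -1.14 against -0.01 over all genes tested. The largest called changes there were in IFI44L (-4.13 ± 0.070, adjusted p = 1e-16), the chemokine CXCL10 (-3.57 ± 0.35, adjusted p = 0.00086), XAF1 (-3.36 ± 0.10, adjusted p = 2.6e-14) and the GTPase MX2 (-3.22 ± 0.14, adjusted p = 2e-05). In HSC3 cells 18 of the 68 were called lower and none higher, beside 4.40% and 1.58% of all genes, with a median of -0.35 against -0.01. IFI44L (-3.64 ± 0.25, adjusted p = 1.8e-06), MX2 (-2.37 ± 0.22, adjusted p = 1.6e-05), the translation inhibitor IFIT1 (-2.19 ± 0.16, adjusted p = 3.8e-06) and MX1 (-1.92 ± 0.14, adjusted p = 2.9e-06) were the largest there among genes with a mean log2 CPM no lower than 1.

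The 7 genes lay within the range of these 68 in both lines. Most of the list was below 0 in CAL27 cells and nearer to 0 in HSC3 cells, and the difference of the responses was called higher in HSC3 cells for 48 of the 68 and lower for 4, beside 8.25% and 12.3% of all genes. TRIM22 (2.25 ± 0.22, adjusted p = 4.7e-06), EPSTI1 (2.01 ± 0.099, adjusted p = 8.9e-09) and the ubiquitin-like modifier ISG15 (1.47 ± 0.24, adjusted p = 0.0004) were among the former. With vehicle, 42 of the 68 were called lower in HSC3 cells (18.7% of all genes) and 1 higher (13.2%), SLFN5 at 2.07 ± 0.087 (adjusted p = 9.2e-12).

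**Figure D5:**
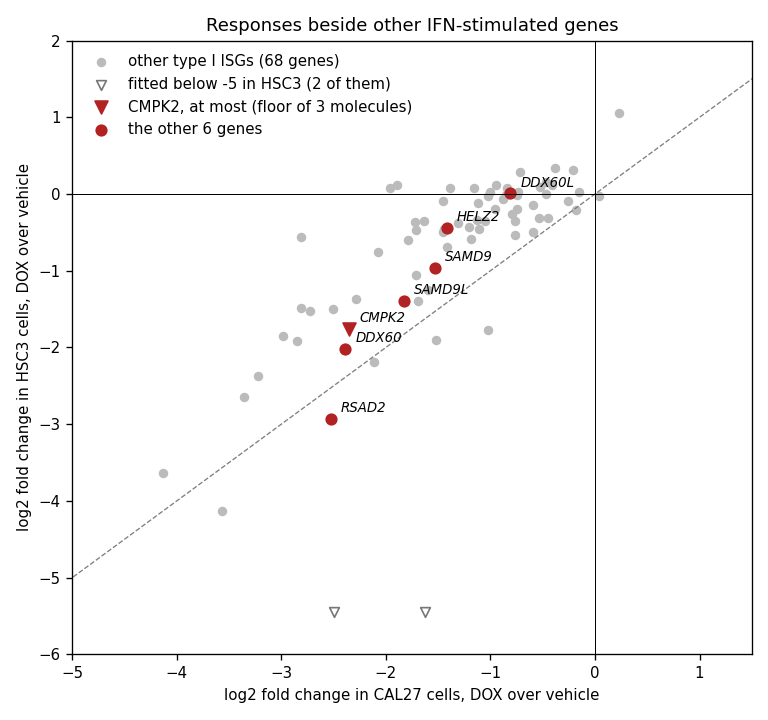
Log2 fold change (DOX over vehicle) in CAL27 cells (x axis) and HSC3 cells (y axis) for 68 other type I IFN-stimulated genes (gray) and the 7 genes (red, named), with a dashed line of equal response. Open triangles are CXCL11 and OASL, fitted below -5 in HSC3 cells, and the red triangle is CMPK2 at its upper limit from a floor of 3 molecules a library. Most points lie above the dashed line, and DDX60L lies at 0.01 on the y axis.

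Relatives and functional partners of the 7 genes were also counted. Of 7 Ski2-like helicases related to DDX60, none was called in either line by the 2-fold rule, and 6 of the 7 could be tested in HSC3 cells. At an adjusted p under 0.05 alone, 4 were higher in CAL27 cells, beside 22.6% of all genes, and none lower, beside 21.8%. In HSC3 cells 1 was higher (13.0% of all genes) and 1 lower (15.4%). SKIC2, the founding member, was at 0.04 ± 0.047 (adjusted p = 0.55) and -0.23 ± 0.093 (adjusted p = 0.09). Of 10 UPF1-like helicases related to HELZ2, 1 was called lower in CAL27 cells, MOV10L1 (-1.07 ± 0.26, adjusted p = 0.0023), beside 5.11% of all genes. None was called in HSC3 cells, beside 4.40% lower and 1.58% higher. HELZ, the closest relative by name, was lower by less than the call in CAL27 cells (-0.43 ± 0.045, adjusted p = 2.2e-07) and in HSC3 cells (-0.20 ± 0.062, adjusted p = 0.03). MOV10 (-0.15 ± 0.038, adjusted p = 0.0039) and ZNFX1 (-0.21 ± 0.038, adjusted p = 0.00011) were slightly lower in CAL27 cells. In HSC3 cells MOV10 was at 0.03 ± 0.081 (adjusted p = 0.86) and ZNFX1 was slightly higher (0.31 ± 0.072, adjusted p = 0.0076).

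Among 12 PPAR receptors and cofactors, the partners first described for HELZ2, the coactivator PPARGC1A was called lower (-1.61 ± 0.050, adjusted p = 2.5e-15) and the receptor PPARG higher (1.21 ± 0.086, adjusted p = 4.9e-10) in CAL27 cells. Over all genes, 5.11% were called lower and 1.31% higher there. In HSC3 cells PPARG, 1 of 11 tested, was called higher as well (1.15 ± 0.34, adjusted p = 0.026), beside 1.58% of all genes. That call was lost in 4 of 6 fits with 1 library left out, down to 0.94 (adjusted p = 0.11) without HSC3 DOX replicate 3. The schlafen family, which like SAMD9 acts on tRNA and translation, had no called member among 5 tested in either line. SLFN5 was at -0.77 ± 0.054 (adjusted p = 3.6e-09) in CAL27 cells and at -0.53 ± 0.087 (adjusted p = 0.00097) in HSC3 cells.

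The pyrimidine nucleotide enzymes are the metabolic setting of CMPK2. Of 26 tested in CAL27 cells, 1 was called lower, beside 5.11% of all genes. At an adjusted p under 0.05 alone 17 were higher and 1 lower, beside 22.6% and 21.8% of all genes. In HSC3 cells 5 were higher and 6 lower by that rule, beside 13.0% and 15.4%. The 1 called was SAMHD1 (-1.42 ± 0.042, adjusted p = 1.5e-15), a dNTP hydrolase that is itself IFN-stimulated, at -0.69 ± 0.080 (adjusted p = 9.2e-05) in HSC3 cells. CMPK1, the cytosolic UMP-CMP kinase, was higher after DOX, at 0.39 ± 0.042 in CAL27 (adjusted p = 2.1e-07) and 0.61 ± 0.086 in HSC3 cells (adjusted p = 0.00034). In HSC3 cells 1 of the 26 was called higher, the adenylate kinase AK3 (1.02 ± 0.090, adjusted p = 1.3e-05), beside 1.58% of all genes. AK3 was at 0.89 and short of the call without HSC3 DOX replicate 1. None of 9 cytosolic iron-sulfur assembly genes, which serve viperin's cluster, was called in either line. At an adjusted p under 0.05 alone, 1 was lower and 2 higher in CAL27 cells, beside 21.8% and 22.6% of all genes. By the same rule 1 was lower in HSC3 cells, beside 15.4%.

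The nearest tested genes on the chromosome were looked at on each side of the 7, 9 genes in all. On chromosome 2 both flanking genes were called lower in CAL27 cells along with CMPK2 and RSAD2, beside 5.11% of all genes. NRIR, a long noncoding RNA known as a negative regulator of IFN responses 105 bases beyond the 3′ end of CMPK2, had 35, 28 and 48 counts in vehicle and 8, 0 and 22 in DOX libraries (-1.80 ± 0.63, adjusted p = 0.029), a call kept in 1 of 6 fits with 1 library left out. RNF144A, an E3 ubiquitin ligase gene 19172 bases beyond RSAD2, had 1143, 889 and 1108 counts in vehicle and 454, 372 and 505 in DOX libraries (-1.11 ± 0.092, adjusted p = 4.9e-09). In HSC3 cells NRIR had 0 counts in all 6 libraries, and RNF144A had 0 in 5 and 24 in HSC3 DOX replicate 1, so both were untested there.

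Near the other genes no neighbor was called in CAL27 cells, beside 5.11% of all genes called lower and 1.31% higher. ANXA10, 28554 bases from DDX60, was called lower in HSC3 cells (-2.43 ± 0.52, adjusted p = 0.0051), beside 4.40% of all genes. CBR4, beyond DDX60L, was called higher in HSC3 cells (1.12 ± 0.088, adjusted p = 5.6e-06), beside 1.58% of all genes. PALLD, which overlaps the span of DDX60L without sharing exonic bases, was lower in HSC3 cells by 0.65 ± 0.081 (adjusted p = 0.00015). VPS50, next to SAMD9L, was at -0.16 ± 0.047 (adjusted p = 0.0098) in CAL27 cells and at -0.07 ± 0.11 (adjusted p = 0.69) in HSC3 cells. CDK6-AS1, on the other side of SAMD9, was tested only in HSC3 cells (0.32 ± 0.84, adjusted p = 0.83). Beside HELZ2, GMEB2 was at -0.08 ± 0.057 (adjusted p = 0.30) and FNDC11 at -1.03 ± 0.45 (adjusted p = 0.075) in CAL27 cells.

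For each of the 7 genes, 10949 others were ranked by how closely their response followed it over the 12 libraries. The measure was the root mean square difference of log2 CPM from the vehicle mean of the same line, which is a description with no test. SAMD9 was followed most closely by the transcription factor BCL11B (0.101) and by CD74 (0.11), the MHC class II invariant chain. SAMD9L was nearest to NDRG1 (0.14) and OAS3 (0.177). DDX60 was nearest to the keratin KRT16 (0.193) and to IFIT1 (0.194).

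DDX60L was matched more tightly than any of the others, by the collagen chain COL4A5 (0.078) and by IFIT5 (0.085), whose CAL27 log2 fold changes were -0.76 and -0.75 and whose HSC3 value was -0.01 for each. HELZ2 was nearest to UBA7 (0.126), the ISG15-activating enzyme, and to SLC15A3 (0.13). RSAD2 (LAMP3 at 0.801, IFIT1 at 0.862) and CMPK2 (TNS1 at 0.718, AKR1C2 at 0.741) had no close match, and both have few counts in HSC3 cells. Of the nearest 10, between 1 (CMPK2) and 6 (HELZ2) were in the IFN lists above, which hold 0.64% of the genes compared. Both the genes matched here and those lists were chosen with results of these libraries known. Nothing is therefore read from how these shares compare. All these profiles share the same libraries.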

How the data were processed

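RNA-seq had been performed by the authors on 12 libraries, 6 of CAL27/tet-MUC1shRNA cells and 6 of HSC3/tet-MUC1shRNA cells (TRIzol extraction, stranded poly(A) libraries). Per the labels, processing used FastQC 0.11.9, STAR 2.7.9a, Subread 2.0.1 with featureCounts and GRCh38. The authors deposited whole-number counts per gene symbol, 1 table for each line, with no normalization. The annotation, strand setting and handling of duplicates are not given in the sources used here. Of 39368 symbols, 39316 (99.9%) matched GENCODE v44, from which places and lengths were taken. Sequence matching used Biopython 1.88.

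The columns of the CAL27 DOX libraries carry numbers that match no sample, so they were assigned to the group only and are called a, b and c. The labels name 3 cultures a group, and no 2 libraries held the same values. Counts were tested in R 4.3.3 with edgeR 4.0.16 (TMM, filterByExpr with minimums of 10 and 15 in total, robust glmQLFit, two-sided glmQLFTest, Benjamini-Hochberg adjustment over all genes tested). Each line was fitted alone, and the comparison of lines came from 1 fit of all 12 libraries. Alternatives were the median-of-ratios factors, library totals, no filter, DESeq2 1.42.0, counts divided by the estimated counts per molecule, a fold change threshold of 1.5, 1 fit for both lines, a replicate block and each library left out. The main edgeR fits of the DOX response in each line, and of its difference between lines, were tested on simulated data. The vehicle comparison and the alternatives were not.

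The 7 genes and the 8 lists were chosen with earlier results of these data known. Other genes named are MUC1, 4 STAT and IRF factors, close relatives of the 7, up to 4 called genes of each list with the largest change (mean log2 CPM no lower than 1), the nearest tested neighbors and the 2 most similar responses for each gene, among genes above the same floor in each line (prior count 2). Members of small counts, and SOCS1, MOV10L1, PPARG in HSC3 cells, CXCL11 and OASL, were named outside this rule after their values were seen. Other promoter motifs, and protein sequences, were not analysed here. A further factor of the rule is not reported here.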

Additional observations from a re-analysis of the deposited data

Results flagged for a closer look

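For 5 of the 7 genes the response to DOX differed between the lines in the fit of all 12 libraries, at an adjusted p under 0.05. The difference is the HSC3 log2 fold change minus the CAL27 log2 fold change. By that rule 8.25% of the 20694 genes tested were called higher and 12.3% lower. SAMD9 differed by 0.57, SAMD9L by 0.44, DDX60L by 0.82 and HELZ2 by 0.98, so all 4 were reduced by less in HSC3 cells or, for DDX60L, not reduced. The SAMD9L difference was called in 11 of 18 settings. CMPK2 differed by -4.94, a fitted value that rests on 0, 2 and 0 counts in HSC3 cells with DOX and is no measure of size. The CMPK2 difference was called in 18 of 18 settings. The floor of 3 molecules for each HSC3 DOX library does not by itself settle its direction. These genes were chosen with the values known, so the differences are descriptions. With groups of 3 libraries, single libraries that stand apart were not looked for by rule.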

How the results depend on the processing

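Each of the 7 genes kept the direction of every change that was called as reported, under every alternative. RSAD2, not called in the difference between lines, ran from -2.87 to 0.15 there. In CAL27 cells the same 6 genes were called in each of the 13 settings at the 2-fold rule. The count of genes called over all genes moved from 1236 to 742 in CAL27 cells and from 1077 to 1782 in HSC3 cells with 1 fit over all 12 libraries. At a fold change of 1.5 these counts were 2562 and 2312. In HSC3 cells 6 IFN ligand, receptor and signaling genes were called at 1.5-fold, and 3 to 5 with 1 library left out. With a difference above 1 in size also required between the lines, 1078 genes, 1 of the 7 genes (CMPK2), 2 IFN signaling genes and 20 other IFN-stimulated genes were called. With library totals alone the vehicle comparison had 4941 genes lower and 1944 higher in HSC3 cells, against 3862 and 2730, as the median of all genes moved from -0.12 to -0.39. DDX60 was then called lower (-1.17) and DDX60L was at 1.55.

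Single libraries decided some values. Without HSC3 DOX replicate 2, RSAD2 was called in the difference between lines (-2.87), and DDX60 as well (0.49). SAMD9L was called in 11 of 18 settings of that difference and DDX60 in 5, also without HSC3 DOX replicate 1 (0.26). RSAD2 in HSC3 cells was called in 3 of 13 settings. With counts divided by counts per molecule, RSAD2 and CMPK2 were too low to be tested in HSC3 cells, and 2 of the 7 genes were called. With the replicate number as a block in HSC3 cells 1005 genes and 3 of the 7 were called. Libraries of the same number did not deviate together (correlations -0.048, 0.019 and -0.050), and not every library correlated best with its own number. For CAL27 cells no paired analysis was possible because the DOX columns carry no sample's number. Precision is limited by low counts for RSAD2 and CMPK2 in HSC3 cells and for NRIR and IRF9. By the estimate of counts per molecule, these counts stand for still fewer sequenced molecules.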
